A study of Mus musculus with 16 samples.

Results

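Lipid droplets are the organelles in which hepatocytes keep triglyceride, and the 10 genes described here encode proteins that make triglyceride, coat droplets, enlarge them or take triglyceride apart. They are Dgat2 and Mogat1 (triglyceride synthesis), Plin2, Plin4 and Plin5 (perilipin coat proteins), Cidea and Cidec (droplet growth), and Pnpla2, G0s2 and Pnpla3 (lipolysis and droplet remodelling). They were chosen by name from the 41079 genes of a table of read counts, which holds all 10, and all 10 were among the 16742 genes tested. Liver RNA of 16 mice was sequenced: 4 LKO and 4 CRE- males and as many of each in females, all on the C57BL/6J background and 20 to 22 months old. Every mouse carried floxed Gcgr, the glucagon receptor gene with LoxP sites around part of its exons. LKO mice also carried Albumin-Cre, which cuts out that part where the Albumin promoter is active, in hepatocytes, and CRE- mice lacked Cre. Cells of the liver that do not use this promoter keep the receptor, and whole liver was sequenced. Counts per mouse totalled between 33268424 and 56488920 reads, and levels are given as CPM, a gene's share of the TMM-scaled library in counts per 1e6, in the order of replicates 1 to 4 of a group. Because the tissue was taken whole, fewer cells of a type and less RNA per cell cannot be told apart in any of the values below.

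Glucagon acts on hepatocytes through a receptor that raises cyclic AMP, and in fasting it favours the release and oxidation of stored fat over its synthesis. Triglyceride is built by adding a fatty acid to diacylglycerol, is wrapped in a droplet coated by perilipins, and is broken down on the droplet surface by the lipase that Pnpla2 encodes, with G0s2 as its inhibitor. Several of these genes are known to follow feeding, insulin and the fat content of the liver.

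The targeted gene, Gcgr, was counted at 190.4, 193, 127 and 189.6 CPM in the male CRE- mice and 117, 136, 129.9 and 160.3 CPM in the male LKO mice. It was at 162, 208, 201 and 179.99 CPM in the female CRE- mice and 48.8, 132, 119 and 93.6 CPM in the female LKO mice. The 4 female LKO mice lay below all female controls, while in males CRE- replicate 3 lay among the LKO mice. That mouse lay with the controls in Pnpla3 (20.9 CPM, male LKO mice at most 13.4) and in Gpam (791 CPM, male LKO mice at most 329.9). In both genes the male groups do not overlap with that mouse counted as a control, so its place there does not test its label. The genotype of that mouse is used as its label gives it. Without that mouse 26 genes were called in males, 0 of them among the 10, where 76 and 0 were called with it. Leaving out any other male mouse instead gave 28 to 49 genes, so the drop was not particular to that mouse. The count covers the whole gene, exons outside the LoxP sites included, so it need not fall as far as the receptor does. The log2 fold change of Gcgr was -0.37 in males (edgeR adjusted p = 0.671, Benjamini-Hochberg) and -0.93 in females (edgeR adjusted p = 0.0443, Benjamini-Hochberg), and the female call was lost in 3 of 6 other settings and 7 of 8 fits without 1 mouse. All 7 hepatocyte markers looked at (Alb, Apoa1, Ttr, Cps1, Serpina1c, Cyp2e1 and Tat) had reads in all 16 mice, and Alb was their most abundant gene in each, as liver requires.

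All 16 libraries were tested in 1 fit by the quasi-likelihood method of edgeR, with 0.05 as the threshold on the Benjamini-Hochberg adjusted p. By that rule 2 of the 10 genes differed between female LKO and CRE- mice, Pnpla3 and Dgat2, both lower, against 4.24% of all genes tested (5 at an unadjusted p under 0.05, as were 3584 of all 16742, and 3 by DESeq2, which called 1809 of all). None of the 10 differed in males (0 called by edgeR, 3 at an unadjusted p under 0.05, as were 1595 of all 16742, and 1 by DESeq2, which called 339 of all) where edgeR called 0.454% of all genes. For the difference between the sexes in the effect of genotype, edgeR called 0 of the 10 genes and 0% of all genes, with 3 of the 10 and 2672 of all 16742 at an unadjusted p under 0.05 and 0 of the 10 but 371 of all genes called by DESeq2. So an effect seen in females alone below is not shown to differ from that in males. The median log2 fold change of the 10 genes, LKO minus CRE-, was 0.025 in males and -0.31 in females, beside -0.0078 and 0.035 over all genes tested. Without Cidea, left out after seeing the data because it passed the filter through males, the medians were 0.050 and -0.14. Over 6 other settings the female median was between -0.44 and -0.062 and the male one between 0.0053 and 0.11. Single mice moved the median of the 10: in males it was -0.33 without LKO replicate 4 and 0.28 without CRE- replicate 2, and in females -0.66 without LKO replicate 3 and -0.071 without LKO replicate 1. Comparing females with males within a genotype was added after seeing the data, because some of the genes were nearly absent in females, so calls of those genes restate what prompted it. Among CRE- mice these were Cidec, Plin4 and Cidea, where 0.92% of all genes were called, and among LKO mice Cidec and Cidea, where 1.13% were. Cidea passed the filter on low counts through males, so its call is no finding of its own. These comparisons use the same mice as those of genotype and are not independent of them.

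**Figure D1:**
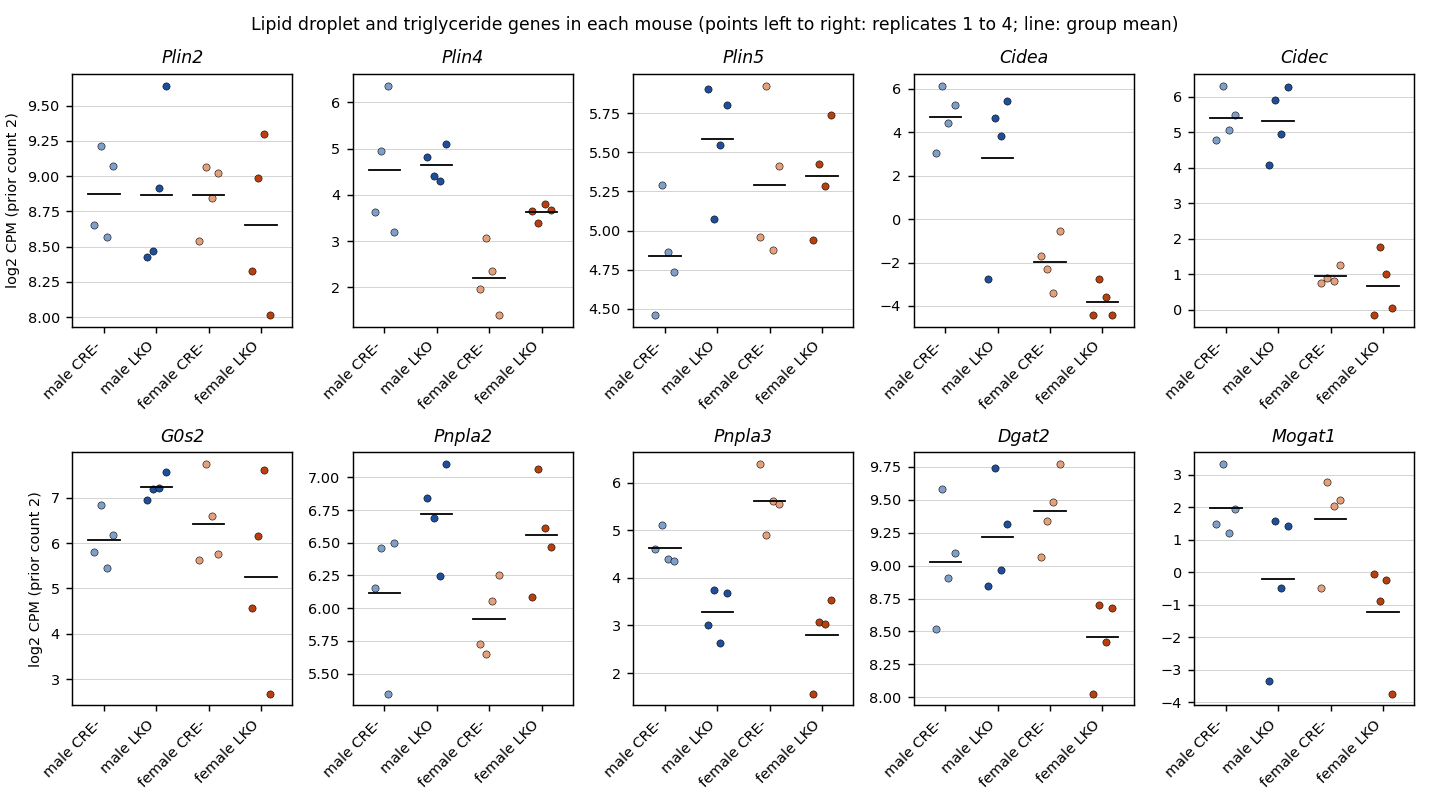
Level of each of the 10 genes in each mouse, as log2 CPM with a prior count of 2 (vertical axes, 1 scale per gene) by group (horizontal axes), with points for replicates 1 to 4 from left to right and a line at the group mean of the log2 values. Pnpla3 was lower in every LKO mouse than in every control of the same sex, Dgat2 separated the female groups in the same direction, and Cidec was higher in every male than in any female.

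Dgat2 encodes the enzyme that joins a fatty acid to diacylglycerol in the last step of triglyceride synthesis. Per length of the gene it was the most abundant of the 10 in each of the 4 groups, at 239.8 RPKM (CPM per kilobase of gene length) in male CRE- and 308 RPKM in female CRE- mice. Its level was 535, 649, 714 and 874 CPM in the female CRE- mice and 261, 416, 342 and 409.6 CPM in the female LKO mice. The groups had no value in common, with the LKO mice the lower, and replicate 1 was the lowest of each group. The mean fell to 357 CPM (SD 72.3) in LKO females where controls had 693 CPM (SD 141), and the log2 fold change was -0.96 (95% interval -1.50 to -0.41, edgeR quasi-likelihood, Benjamini-Hochberg adjusted p = 0.0484), lower in 4 of 4 mice. In males Dgat2 was at 366, 767, 479 and 547 CPM in CRE- mice and 460.4, 857, 499.9 and 639 CPM in LKO mice. The male groups overlapped over most of their range, with replicate 2 the highest of each (log2 fold change 0.19, 95% interval -0.36 to 0.73, from -0.025 to 0.41 with 1 mouse left out). Female minus male effect came to -1.14 in log2 (edgeR adjusted p = 0.204, Benjamini-Hochberg).

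The female Dgat2 call was close to the threshold. When each female mouse was dropped in turn, the log2 fold change was between -1.06 and -0.80, and the edgeR adjusted p (Benjamini-Hochberg) was between 0.0411 and 0.139, under 0.05 in 1 of 8 fits, that without LKO replicate 2. It also rose above the threshold in 3 of 6 other settings, which gave adjusted p values from 0.00717 (DESeq2) to 0.0844 (females fitted alone in edgeR). The summed level of 7 hepatocyte markers, with Alb the most abundant, was 114823, 112976, 119333 and 134681 CPM in female CRE- mice and 49551, 91760.1, 90838 and 68712 CPM in female LKO mice. In this sum all LKO mice were below all controls. Of these 7 markers 0 passed edgeR's test in females, 3 were lower at an unadjusted p under 0.05, 2 passed by DESeq2, and their median log2 fold change was -0.76. Their part in the Dgat2 result was not tested.

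Mogat1 encodes a monoacylglycerol acyltransferase, which makes diacylglycerol by another route, and it was among the least abundant of the 10 genes. Its level was 0.665, 6.72, 4.05 and 4.60 CPM in the female CRE- mice and 0.906, 0.499, 0.805 and 0.0289 CPM in the female LKO mice, where replicate 4 had 1 read. Replicate 1 of the female controls lay within the LKO values, and the other 3 controls were above all LKO mice. The log2 fold change was -2.82 (95% interval -4.81 to -0.83, edgeR quasi-likelihood, Benjamini-Hochberg adjusted p = 0.0928), so Mogat1 did not pass in females. DESeq2's Wald test gave an adjusted p of 0.0432, at the low end of a range of 0.0432 to 0.162 over 5 settings. Among males Mogat1 was at 2.72, 9.98, 2.24 and 3.78 CPM in CRE- mice and 0.0514, 2.92, 0.671 and 2.65 CPM in LKO mice. LKO replicate 1 had 2 reads, and LKO replicates 2 and 4 lay among the controls. The male log2 fold change was -1.57 (95% interval -3.44 to 0.30), and from -2.07 to -0.88 with 1 mouse left out.

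The perilipins coat droplets and govern the access of lipases to them. Plin2, the main perilipin of hepatocytes and a usual marker of stored fat in liver, was the most abundant of the 3 per length in every group, at 116 RPKM in male CRE-, 119.99 in male LKO, 114 in female CRE- and 104 in female LKO mice. Single male mice were at 403, 593, 379.5 and 538 CPM with the CRE- genotype and 344, 354, 482 and 799 CPM with the LKO genotype. Female CRE- mice were at 372, 535, 459.97 and 519.7 CPM and female LKO mice at 321, 509, 629.6 and 259 CPM. In both sexes the LKO values reached both below and above those of the controls, so the mice differed more among themselves than the groups did. The log2 fold change was 0.05 in males (95% interval -0.59 to 0.69) and -0.14 in females (95% interval -0.78 to 0.51), and leaving out 1 mouse turned the sign of each.

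Plin5, which ties droplets to mitochondria in tissues that burn fat, was at 22.0, 39.1, 29.0 and 26.6 CPM in male CRE- mice and 59.8, 33.6, 46.8 and 55.8 CPM in male LKO mice. LKO replicate 2 was within the control range, and the other 3 LKO mice were above all controls. The log2 fold change in males was 0.75 (95% interval 0.20 to 1.29, edgeR quasi-likelihood, Benjamini-Hochberg adjusted p = 0.315), which did not pass. In females Plin5 was at 31.0, 60.8, 29.4 and 42.6 CPM in CRE- and 30.7, 42.8, 39.0 and 53.3 CPM in LKO mice, and the groups lay within the same range, with a log2 fold change of 0.017 (95% interval -0.52 to 0.56). For the sex difference the log2 value was -0.73 (edgeR adjusted p = 0.330, Benjamini-Hochberg).

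Plin4, a perilipin known chiefly from fat tissue and muscle, lies on chromosome 17 from 56407587 to 56416947 of GRCm39, next to Plin5 on the same strand, with 1653 bases between them. Whether the pair shared a pattern was not tested. Plin4 was at 3.88, 8.29, 5.08 and 2.59 CPM in female CRE- mice and 12.5, 10.4, 13.8 and 12.7 CPM in female LKO mice, and all LKO mice were above all controls and close together. Its log2 fold change in females was 1.31 (95% interval 0.20 to 2.42, edgeR quasi-likelihood, Benjamini-Hochberg adjusted p = 0.155), higher in 4 of 4 mice but not past the threshold. Male CRE- mice were at 12.3, 30.9, 82.2 and 9.08 CPM and male LKO mice at 28.1, 21.1, 19.5 and 34.2 CPM. CRE- replicate 3 was far above the rest of the males, while the LKO mice stayed within a narrow range inside that of the controls. The male log2 fold change of -0.39 (95% interval -1.46 to 0.69) became 0.56 without CRE- replicate 3, so its direction rested on that mouse. Among CRE- mice Plin4 was 6.78-fold lower in females by the means, and all females were below all males (log2 fold change -2.76, female minus male, edgeR quasi-likelihood, Benjamini-Hochberg adjusted p = 0.0222). That call was lost with male CRE- replicate 3 (log2 -1.82) or any of female CRE- replicates 1, 3 and 4 left out, with log2 values from -3.12 to -1.82 and edgeR adjusted p (Benjamini-Hochberg) from 0.00619 to 0.0945 over the 8 fits. In LKO mice the sexes differed by -1.06 in log2 (edgeR adjusted p = 0.295, Benjamini-Hochberg), with all females again below all males. The sexes did not overlap in 7.54% of all genes tested among CRE- mice and in 8% among LKO mice. The test of the difference in the genotype effect between the sexes gave 1.70 (edgeR adjusted p = 0.283, Benjamini-Hochberg), and 0.77 without male CRE- replicate 3.

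Cidea and Cidec belong to the CIDE family, whose proteins sit where droplets touch and pass fat from the smaller to the larger one, and both are known to be raised in fatty liver. Cidec was at 27.4, 79.8, 33.2 and 45.3 CPM in male CRE- mice and 16.7, 60.3, 31.2 and 77.6 CPM in male LKO mice, and at 1.64, 1.83, 1.72 and 2.38 CPM in female CRE- and 0.856, 3.39, 1.96 and 0.983 CPM in female LKO mice. The lowest male was well above the highest female, while within each sex the genotypes overlapped. Cidec was 24.5-fold lower in CRE- females than in CRE- males by the means (log2 fold change -4.62, edgeR quasi-likelihood, Benjamini-Hochberg adjusted p = 0.000167) and 25.9-fold lower in LKO females than in LKO males (log2 fold change -4.68, edgeR adjusted p = 0.000193, Benjamini-Hochberg), in 4 of 4 mice each. For genotype the log2 fold change was 0.00063 in males (95% interval -0.96 to 0.96) and -0.067 in females (95% interval -1.10 to 0.97), and leaving out 1 mouse turned the sign of both.

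Cidea was counted at 12, 8, 2 and 24 reads in the female CRE- mice and 0, 4, 2 and 0 reads in the female LKO mice, at most 0.641 CPM. Males had 8.20, 71.2, 21.6 and 37.6 CPM in the CRE- group and 0.103, 25.4, 14.1 and 43.7 CPM in the LKO group. LKO replicate 1 stood apart, with 4 reads where the other male LKO mice had 1220, 566 and 1616, and its level was that of the females. Leaving it aside, the male groups overlapped. Because Cidea passed the filter on low counts through the males alone, its sex difference is given here as these values. Its call between the sexes, named above, is no finding of its own. Genotype gave -0.74 in males (95% interval -2.62 to 1.14; -1.40 without LKO replicate 4 and -0.11 without CRE- replicate 2) and a female value that rests on 46 reads against 6. In the order of levels per length, Cidea stood just below G0s2 and above Pnpla2 in male controls (29.8 RPKM) and last in female controls (0.239 RPKM), and Cidec had 26.5 and 1.08 RPKM.

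Male mice high in Cidec tended to be the same as those high in Cidea: CRE- replicate 2 and LKO replicate 4 were highest in their groups for both, and LKO replicate 1 was lowest for both. CRE- replicate 2 was the highest of its group for 8 of the 10 genes, LKO replicate 4 for 6, and LKO replicate 1 was the lowest for 6. Because both genes are used by fat cells, adipocyte markers were set beside them. The summed level of 7 such markers (Adipoq, Lep, Cfd, Retn, Plin1, Fabp4 and Lipe) was 27.2, 47.6, 36.9 and 55.5 CPM in male CRE-, 24.1, 126, 38.7 and 134 in male LKO, 30.7, 27.9, 24.9 and 34.5 in female CRE- and 20.9, 52.8, 24.1 and 119.8 in female LKO mice. Lipe, Cfd or Fabp4 was the most abundant of them in each mouse, and 0 of the 7 differed between the sexes of CRE- mice by edgeR or by DESeq2 (3 were higher in females by unadjusted p under 0.05). Adipoq was at or below 2.29 CPM in every mouse and had no reads in male CRE- replicates 1, 3 and 4, and Plin1 had none in any male CRE- mouse, where Cidec was between 27.4 and 79.8 CPM. Of the brown fat markers, Ucp1 and Dio2 did not pass the filter on low counts. Ucp1 was at 0.0406, 0, 0 and 0 CPM in male CRE- and 0.154, 0, 0.248 and 5.67 CPM in male LKO mice, and Dio2 at most 0.289 CPM in any mouse. LKO replicate 4, with 210 reads of Ucp1, was also the male LKO mouse highest in Cidea, Cidec and the adipocyte sum, and the part of fat cells in these values was not tested. Elovl3, an elongase that is on that list and that hepatocytes also use, was at 58.5, 50.6, 26.4 and 97.3 CPM in male CRE- mice and 0.932, 5.45, 2.06 and 2.30 CPM in female CRE- mice (log2 fold change -4.43, female minus male, edgeR adjusted p = 0.0494, Benjamini-Hochberg). It was lowest among male LKO mice in replicate 1, the mouse with 4 Cidea reads, at 3.14 CPM.

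Pnpla2 encodes adipose triglyceride lipase, which removes the first fatty acid from triglyceride. It was at 71.1, 88.1, 40.7 and 90.5 CPM in male CRE- and 115, 103, 75.7 and 137 CPM in male LKO mice. Female CRE- mice were at 52.8, 50.1, 66.6 and 76.2 CPM and female LKO mice at 67.9, 134, 98.1 and 88.5 CPM. In males LKO replicate 3 lay within the controls and in females LKO replicate 1 did, while the other 3 LKO mice of each sex were above all controls. By the means Pnpla2 was 1.48-fold as high in LKO males (log2 fold change 0.57, 95% interval 0.011 to 1.13, edgeR adjusted p = 0.511, Benjamini-Hochberg) and 1.58-fold in LKO females (log2 fold change 0.66, 95% interval 0.10 to 1.22, edgeR adjusted p = 0.155, Benjamini-Hochberg). Neither passed the test, and with 1 mouse left out the values ran from 0.36 to 0.71 in males and 0.47 to 0.82 in females.

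G0s2, whose protein binds and inhibits that lipase, was at 56.1, 114, 43.4 and 72.2 CPM in male CRE- mice and 123, 146, 147 and 189 CPM in male LKO mice. Every male LKO mouse was above every male control, and the mean was 2.12-fold as high. With a log2 fold change of 1.08 (95% interval -0.39 to 2.56, edgeR adjusted p = 0.661, Benjamini-Hochberg), G0s2 did not pass the test in males, and 6.49% of all genes tested had male groups that do not overlap. Females varied more: G0s2 was at 49.3, 214, 96.0 and 54.3 CPM in CRE- mice and 23.7, 71.5, 195 and 6.39 CPM in LKO mice. The female groups overlapped, and the LKO mice covered a wider range than the controls, from replicate 4 to replicate 3. The female log2 fold change was -0.48 (95% interval -1.94 to 0.99), and it was between -1.61 without LKO replicate 3 and 0.16 without CRE- replicate 2. The sex difference was -1.56 in log2 (edgeR adjusted p = 0.423, Benjamini-Hochberg), from -2.69 without female LKO replicate 3 to -0.93 without female CRE- replicate 2.

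Pnpla3, a relative of Pnpla2 whose protein sits on droplets and remodels their lipids and which is known to follow insulin and carbohydrate feeding, lies on chromosome 15 from 84052017 to 84073720 of GRCm39. In females it was at 83.9, 29.9, 49.2 and 47.0 CPM in CRE- mice and 2.92, 8.35, 8.08 and 11.5 CPM in LKO mice. The highest LKO mouse was below the lowest control, and the female control with the highest value, replicate 1, stood well above the other 3. From controls at 52.5 CPM (SD 22.6) the LKO mean fell to 7.72 CPM (SD 3.57), which is 6.80-fold lower (log2 fold change -2.77, 95% interval -3.60 to -1.93, edgeR quasi-likelihood, Benjamini-Hochberg adjusted p = 0.00325), in 4 of 4 mice. With any female mouse left out, or under any of the 6 other settings, Pnpla3 stayed under the threshold in females. Male CRE- mice had 24.3, 34.7, 20.9 and 20.3 CPM and male LKO mice 8.05, 13.4, 6.16 and 12.8 CPM. Again no LKO mouse reached the controls, and the groups were closer to each other than in females. The male log2 fold change was -1.31 (95% interval -2.11 to -0.51), and edgeR quasi-likelihood, Benjamini-Hochberg adjusted p = 0.177 did not pass, while DESeq2's Wald test gave 0.0337, the lowest of 0.0337 to 0.223 over 6 settings. Control females were 2.10-fold as high as control males by the means (edgeR adjusted p = 0.238, Benjamini-Hochberg), and LKO mice of the sexes overlapped. The sex difference in the effect of genotype was -1.46 in log2 (95% interval -2.57 to -0.34, edgeR adjusted p = 0.231, Benjamini-Hochberg).

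**Figure D2:**
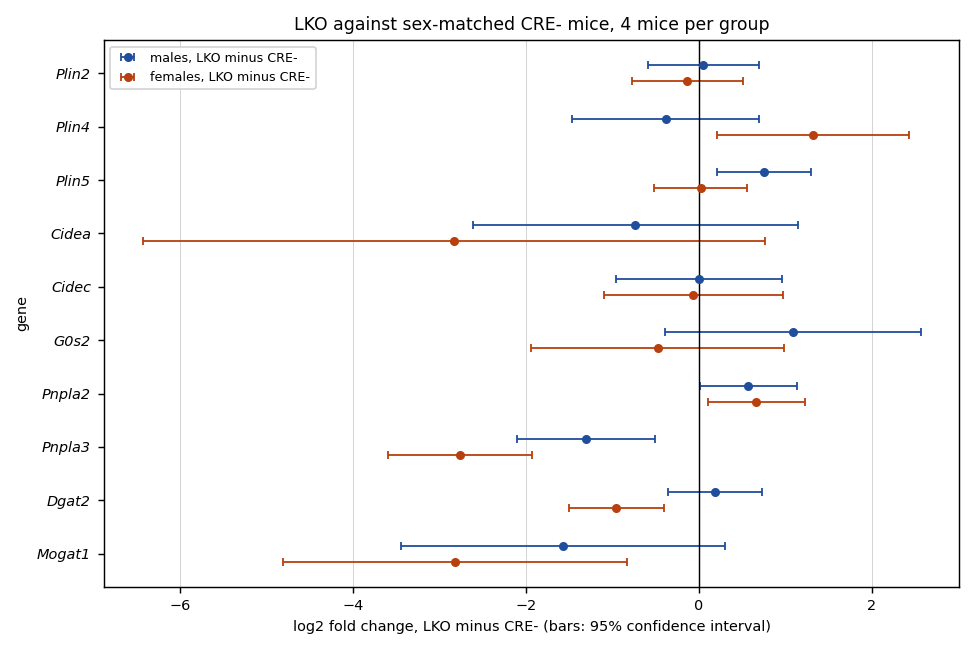
Log2 fold change of LKO against CRE- mice of the same sex (horizontal axis) for each of the 10 genes (vertical axis), in males and in females, 4 mice per group, with approximate 95% confidence intervals derived from the test statistics of edgeR's joint fit. Pnpla3 had the lowest upper bound in both sexes, and the intervals of Plin2 and Cidec lie around 0 in both.

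Groups that do not overlap were found for 2 of the 10 genes in males (G0s2 higher, Pnpla3 lower), beside 6.49% of all genes tested, and for 3 in females (Plin4 higher, Dgat2 and Pnpla3 lower), beside 11.6%. Between the sexes of CRE- mice 3 did not overlap (Plin4, Cidea and Cidec, all lower in females), beside 7.54%. Among LKO mice it was 4, these and Dgat2, beside 8%. Cidea is counted here though it passed the filter through males.

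The sequence before the start of Pnpla3 is shown because it was the one gene of the 10 lower in every LKO mouse of both sexes, and because cyclic AMP acts through factors that bind TGACGTCA. RefSeq promoter windows, 250 bases before to 50 after a gene's start (GRCm38.p6), were at hand for 8 of the 10 genes, as 10 windows. TGACGTCA, which reads the same on both strands, was in 1 of these windows, that of Pnpla3, and in 588 of all 32851 windows, or 1.79%. CACGTG, likewise palindromic, was in 1, that of Plin2, and in 7.15% of all windows. A direct repeat of 13 bases that PPAR receptors bind, sought on both strands, was in 0 of the 10 and in 0.0396% of all. Only exact matches were sought, and one this rare would seldom occur in 10 windows, so its absence tells little. The Pnpla3 window's upstream part matched the GRCm39 genome exactly and once. The motif begins 46 bases before the RefSeq start on the plus strand, and 12 of 22 GENCODE transcripts of Pnpla3 hold it in their first exon. It is shown in capitals with 11 bases on each side.
Pnpla3, GRCm39 chr15:84051960-84051989, plus strand: ggggcctcagcTGACGTCAcccgaagacag
No measurement of binding was used here.

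Around the 10 genes, 62 others of the same pathway were looked at, and all 62 were tested. In females 7 of them passed edgeR's test, 1 higher and 6 lower (by unadjusted p under 0.05, 4 higher and 16 lower; by DESeq2 1 higher and 9 lower). In males 0 passed by edgeR (by unadjusted p under 0.05, 4 higher and 8 lower; by DESeq2 2 lower). Over all genes tested 4.24% passed by edgeR in females and 0.454% in males, and DESeq2 called 1809 and 339 of 16742. The median log2 fold change of the 62 was -0.27 in females and -0.094 in males, beside 0.035 and -0.0078 over all genes. Among 12 genes of triglyceride synthesis, 1 fell in females, Gpam, the acyltransferase that starts glycerolipid synthesis, whose mean was 420.4 CPM (SD 61.7) in CRE- and 186 CPM (SD 89.5) in LKO mice (log2 fold change -1.18, edgeR adjusted p = 0.0408, Benjamini-Hochberg). Its values did not overlap in males either (log2 fold change -1.05, edgeR adjusted p = 0.177, Benjamini-Hochberg). DESeq2's Wald test gave Gpam an adjusted p of 0.0334 in males. Of 12 genes of fatty acid uptake and activation 3 fell in females: Acsl5, a ligase that couples fatty acids to coenzyme A (-1.20, edgeR adjusted p = 0.00646, Benjamini-Hochberg), Fabp2, a fatty acid binding protein (-1.48, edgeR adjusted p = 0.0326, Benjamini-Hochberg), and Slc27a5, a bile acid and fatty acid ligase (-0.77, edgeR adjusted p = 0.0335, Benjamini-Hochberg). Of 11 lipases and cofactors, Aadac, a microsomal esterase, fell (-1.11, edgeR adjusted p = 0.0366, Benjamini-Hochberg), and Lpl, lipoprotein lipase, rose (2.57, edgeR adjusted p = 0.0474, Benjamini-Hochberg). Among 9 regulators the lipogenic factor Srebf1 fell in females (-1.39, edgeR adjusted p = 0.0369, Benjamini-Hochberg) and stood at -1.21 in males (edgeR adjusted p = 0.174, Benjamini-Hochberg). For Srebf1 in males DESeq2's Wald test gave an adjusted p of 0.0256. Without male LKO replicate 2 its male value was -1.70 (edgeR adjusted p = 0.0287, Benjamini-Hochberg). None of 12 droplet proteins or 6 genes of triglyceride secretion passed in females by edgeR (3 and 4 were lower by unadjusted p under 0.05, and DESeq2 called 0 and 1). In 8 fits with 1 female mouse left out, the edgeR adjusted p (Benjamini-Hochberg) of Acsl5 stayed under 0.05 in 8, and that of Gpam in 1, Fabp2 in 3, Slc27a5 in 2, Aadac in 2, Lpl in 2 and Srebf1 in 1.

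Of the partners and relatives of the 10 genes, those that follow did not pass edgeR's test in either sex. Abhd5, the coactivator of the Pnpla2 lipase, had log2 fold changes of -0.12 in males and -0.27 in females. Dgat1, which catalyses the same reaction as Dgat2, stood at -0.093 (95% interval -0.36 to 0.18) and -0.0033 (95% interval -0.27 to 0.27), so the female fall of Dgat2 had no counterpart of its size in Dgat1. Plin3 was at -0.11 and -0.23, and Hilpda, an inhibitor of the lipase, at 0.57 and 0.44. Cideb, the CIDE gene of normal hepatocytes, was at 207 CPM (SD 61.2) in male and 248 CPM (SD 43.8) in female controls, without the sex difference of Cidea and Cidec (log2 0.26, edgeR adjusted p = 0.699, Benjamini-Hochberg), and was at 154 CPM (SD 47.0) in female LKO mice (log2 fold change -0.69, edgeR adjusted p = 0.145, Benjamini-Hochberg). The nuclear receptors Pparg (-0.11 and 0.29) and Ppara (-0.76 and -0.27), and the factor Creb3l3 (0.19 and -0.26), are given for males and females in that order. Plin1 was at most 1.20 CPM in any mouse.

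Other cell types differed among the female LKO mice, and these values stand beside the female results above. Summed over 6 Kupffer cell and macrophage markers, the level was 526, 427, 463 and 808 CPM in female CRE- and 2634, 649.8, 1516 and 736 CPM in female LKO mice, with Cd5l or Clec4f the most abundant and 1 of 6 past the test (Adgre1, higher) and all 6 higher by unadjusted p under 0.05 (5 of 6 by DESeq2). For 5 markers of lipid-associated macrophages it was 189, 91.7, 91.6 and 173 and 558, 309, 246 and 739.7 CPM, and 3 of the 5 rose by edgeR (4 by DESeq2), Trem2, Cd9 and Lpl, the last of which is also among the lipases above. Lpl alone was 466 CPM in LKO replicate 1 and 548 CPM in LKO replicate 4. Without Lpl the sum of LKO replicate 1 is below that of CRE- replicate 1, which had 98.0 CPM of Spp1 alone. For 5 neutrophil markers the sum was 26.2, 14.5, 11.6 and 14.5 and 76.0, 30.7, 48.1 and 483 CPM, with 1 of the 4 tested higher by edgeR (Retnlg), 4 by DESeq2 and by unadjusted p under 0.05, and the highest sum in LKO replicate 4, the mouse with the lowest Mogat1 and G0s2. Replicate 1 of the female LKO mice had the highest Kupffer cell and macrophage sum of its group and the lowest hepatocyte sum. It was also lowest for Gcgr and for 6 of the 10 genes, in Cidea tied with replicate 4 at 0 reads. In males the sums of hepatocyte markers were 72681, 100187, 104931 and 97973 CPM in CRE- and 65451, 81142, 93143 and 81470.2 CPM in LKO mice, which overlapped, and 0 of the 7 passed by edgeR or by DESeq2 (2 lower by unadjusted p under 0.05). Skeletal muscle markers (Acta1, Ckm and Mylpf) summed to 0.812, 1.09, 0.468 and 0.989 CPM in male CRE-, 1.65, 0.833, 73.7 and 49.4 in male LKO, 4.48, 1.13, 1.15 and 18.5 in female CRE- and 1.31, 8.23, 1.65 and 1.56 in female LKO mice, highest in male LKO replicates 3 and 4 and next in female CRE- replicate 4 (in males 0 of 3 called by edgeR, 3 by DESeq2 and by unadjusted p under 0.05). Endothelial markers (Pecam1, Stab2, Lyve1 and Clec4g) summed to 89.6, 142, 117 and 125 CPM in male CRE- and 143, 143, 163 and 155 CPM in male LKO mice, with all LKO mice above all controls and Clec4g or Stab2 the most abundant. None of these 4 passed in males (0 by edgeR, 0 by DESeq2, 0 by unadjusted p under 0.05). Female endothelial sums were 123, 162, 155 and 181 CPM in CRE- and 238, 157, 146 and 191 CPM in LKO mice, which overlapped. Of these 4 markers 0 were called in females by edgeR, 1 was higher by DESeq2 and 2 were higher by unadjusted p under 0.05. Male neutrophil sums were 54.6, 14.1, 7.57 and 116 CPM in CRE- and 17.8, 10.6, 7.95 and 7.67 CPM in LKO mice, with 0 of 4 markers called by edgeR or DESeq2 and 3 lower by unadjusted p under 0.05. Mitochondrial genes made up 4.40, 5.40, 4.75 and 4.57% of counts in female CRE- and 4.10, 4.39, 3.96 and 2.83% in female LKO mice, with all LKO mice below all controls and LKO replicate 4 apart from the rest. In males they made up 4.49, 5.39, 6.19 and 5.12% and 4.17, 5.06, 5.61 and 5.43%, which overlapped. The part of these cells, or of RNA quality, in the values of the 10 genes was not tested.

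**Figure D3:**
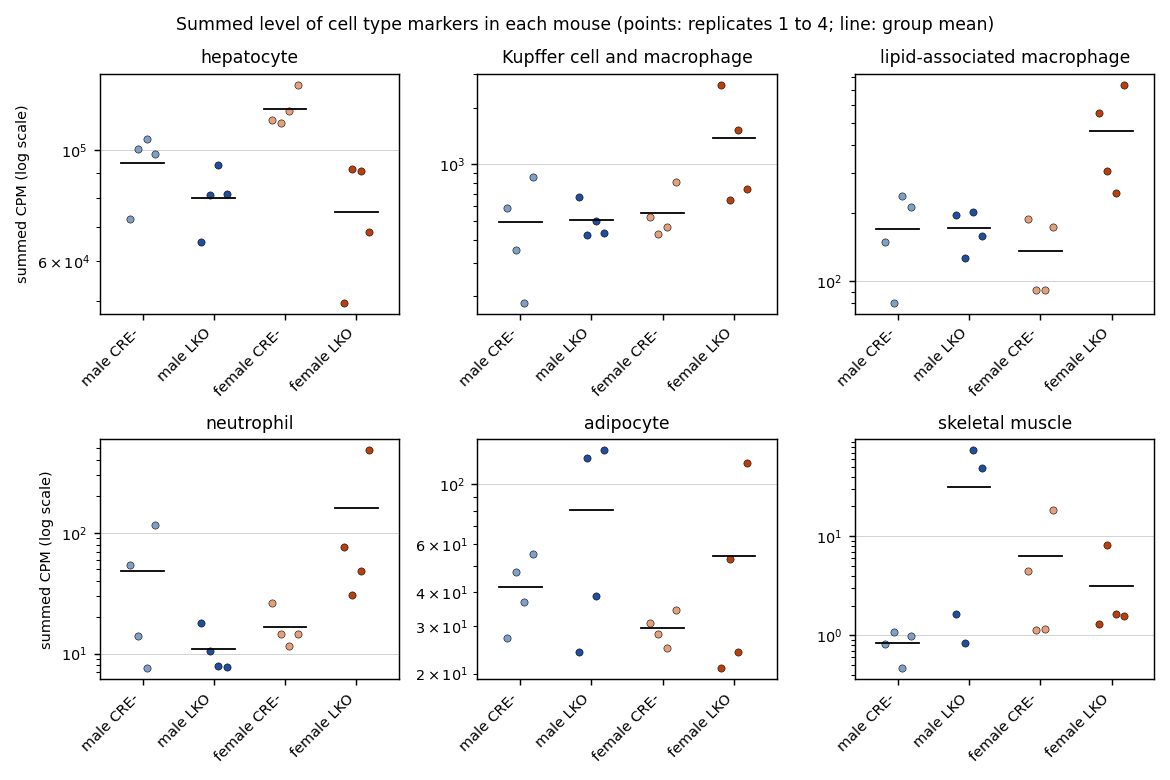
Summed CPM of the markers of 6 cell types (vertical axes, log scale, 1 scale per panel) in each mouse by group (horizontal axes), with points for replicates 1 to 4 and a line at the group mean. In female LKO mice every hepatocyte sum is below that of every female control, and every lipid-associated macrophage sum is above. Without Lpl, which was 466 of the 558 CPM in LKO replicate 1, the female lipid-associated macrophage sums overlap.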

How the data were processed

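Livers of 16 mice were sequenced as poly-A selected, paired-end libraries, 4 per sex and genotype. The authors aligned reads to GRCm39 with STAR 2.7.1a and made the deposited counts with featureCounts of Subread 2.0.6, which, per the file headers, used the reverse strand and counted each read of a pair; no scaling was applied to the count values. The other deposited column, gene length in bases as featureCounts gives it per the file headers, served for RPKM.

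Genes were kept by filterByExpr of edgeR 4.0.16 (minimum count 10; 16742 of 41079), scaled by TMM and fitted jointly over 4 groups by quasi-likelihood in R 4.3.3. LKO was compared with CRE- in each sex, with the difference between these effects, and females with males within each genotype after seeing the data. P values were adjusted by Benjamini-Hochberg over all genes tested, with a threshold of 0.05. The 95% intervals are approximations, as this test of edgeR returns none. Their standard error was the absolute log2 fold change over the square root of the F statistic, multiplied by a t quantile. Alternatives were RLE scaling, no filter, at least 10 counts in every library (13000 genes), DESeq2 1.42.0, each sex alone, the replicate number as a block, and leaving out each mouse. On simulated counts with 200 genes changed in female LKO mice, edgeR called 179 in females, 174 of them changed genes, and DESeq2 called 228, 185 of them changed. These genes were changed 4-fold up or down and drawn from those above a floor in CPM. Many differences reported here are smaller, so these shares do not carry over to them. Totals per library were 33268424 to 56488920 counts. The 10 genes and the gene lists were chosen with earlier results of these data known; of 62 further pathway genes, those past the threshold in either sex are named, with a set of partners and regulators named whatever their p.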

Additional observations from a re-analysis of the deposited data

Results flagged for a closer look

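Within each group of 4 mice, a value was marked when its gap to the nearest other mouse on the log2 CPM scale was a larger share of the group's range than Dixon's test allows for 4 values, which marks about 1 in 20 groups by chance. Of 108 groups of 4 from 27 genes, 4 were marked, and 0 of these were among the 40 groups of the 10 genes of the report.

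Acsl5 was lowest in male LKO replicate 1, at 294.55 CPM (gap over range 0.872), and Aadac was lowest in the same mouse, at 266.175 CPM (0.895). That mouse also had 4 reads of Cidea and the lowest hepatocyte marker sum of the males, 65451 CPM. Its difference from the other mice was not tested.

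Plin1 was highest in female LKO replicate 2, at 1.19671 CPM, where the other 3 mice of the group had no reads. Adipoq was highest in the same mouse, at 2.29 CPM.

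Gcgr was lowest among male CRE- mice in replicate 3, at 127.35 CPM (gap over range 0.958), within the range of the male LKO mice. In Pnpla3 (20.9 CPM, male LKO mice at most 13.4) and Gpam (791 CPM, male LKO mice at most 329.9) the same mouse lay with the controls. In both genes the male groups do not overlap with that mouse counted as a control, so this does not test its label. That mouse also had the highest Plin4 of all mice, 82.2 CPM.

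Lpl was marked as a difference between the sexes, 3.3528 in log2: all female LKO mice were above the mean of the female controls and all male LKO mice were below the mean of the male controls. That male mean is raised by CRE- replicate 3 (182 CPM): without it the male log2 fold change of Lpl was -0.15 and the sex difference 2.72, and LKO replicate 3 (85.9 CPM) was above each of the other 3 controls. The test of that difference gave an edgeR adjusted p of 0.179 (Benjamini-Hochberg) and 0.0438 by DESeq2. Lpl is also a marker of lipid-associated macrophages.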

How the results depend on the processing

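No called result turned its direction under an alternative. Pnpla3 stayed called in females under all settings. Counts of called genes moved as follows, and the cause of these moves was not tested. In males DESeq2 called 339 genes and 1 of the 10 (76 and 0 by edgeR's joint fit). In females DESeq2 called 1809 genes and females fitted alone 119 (710 in the joint fit), and 1 of the 10 genes was called with no filter, 1 with at least 10 counts in every library and 1 with females alone, Pnpla3 each time. For the sex difference 12 genes were called with no filter and 371 by DESeq2 (0 in the joint fit). Between control females and males 78 genes were called with the strict filter and 506 by DESeq2 (154). Between LKO females and males it was 102 with the strict filter and 1057 by DESeq2 (189), and 1 of the 10 genes with the strict filter, which drops Cidea. With the replicate block 1244 genes were called in females and 514 between LKO females and males.

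For the replicate block, mice share only a number: correlations of same-numbered mice were 0.17, 0.17, 0.14 and -0.013 in males and 0.17, 0.10, 0.12 and 0.028 in females, and 2 of 4 mice in each sex correlated best with their own number. Under the block Dgat2 also passed between LKO females and males (-0.77 in log2, edgeR adjusted p = 0.0359, Benjamini-Hochberg).

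Leaving out 1 mouse at a time, calls ranged from 26 to 49 genes in males, 87 to 1310 in females with 1 to 2 of the 10 genes, 0 to 14 for the sex difference, 68 to 149 between controls and 49 to 684 between LKO mice of the sexes.

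Each group had 4 mice of 1 age range, so a gene that did not pass is not shown to be unchanged. LKO mice carry Cre and controls do not, so an effect of Cre is part of the comparison. In every female LKO mouse the hepatocyte marker sum was below, and the lipid-associated macrophage sum above, that of every female control. The separation by lipid-associated macrophage markers rested on Lpl, 466 of the 558 CPM in LKO replicate 1, and is lost without it. By edgeR 0 of the 7 hepatocyte markers and 3 of the 5 lipid-associated macrophage markers passed. Bulk counts do not separate a change of cells from one within them. Depth limits Cidea, Cidec and Mogat1, which had under 50 reads in some mice. Droplets, triglyceride and proteins were not analysed here.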
